A study of Homo sapiens with 6 samples.

Results

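The genes that build cholesterol and fatty acids were followed after siRNA against LEF1 in BL2, an established cell line from Burkitt lymphoma. The set named 31 genes, chosen by pathway membership but with earlier results of these data known. Of these, 28 had at least 1 probe set that the platform annotation gives to that gene alone, among 19775 genes so measured. They fell into 16 sterol enzymes, 5 genes that control sterol synthesis or carry sterol, and 7 fatty acid enzymes. CYP51A1 and FADS1 lay only on probe sets annotated to 2 genes, and FDFT1 was not analysed here.

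Cells were electroporated with scrambled siRNA or with siRNA against LEF1, the latter described as a pool of 4 siRNAs, and grown in complete RPMI. LEF1 is a transcription factor through which Wnt signals act on genes. Each group had 3 arrays, described as biological replicates, and the labels number 3 batches, with both groups present once in each. Both groups thus share the line, the medium and electroporation with siRNA, no untreated culture was used here, and no source used here gave the time after electroporation. Being 1 line, the data describe BL2 cells and not Burkitt lymphoma in general. Values are log2 expression per probe set, and a probe set is a group of probes read as 1 value. Errors are SDs over 3 arrays unless marked otherwise. SEs and intervals of single genes come from limma with batch as block, which draws partly on the variance of all probe sets.

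Cholesterol is made from acetyl-CoA through mevalonate and farnesyl diphosphate to squalene, which is closed into lanosterol and then trimmed to cholesterol. The enzymes of this route are under common control by the transcription factor SREBP-2, which SCAP escorts out of the endoplasmic reticulum when membrane sterol is low and which INSIG proteins hold back when it is high. SREBP-1 acts more on fatty acid synthesis, in which acetyl-CoA is carboxylated, built into palmitate, elongated and desaturated. Dividing lymphocytes draw on both routes for membranes.

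The knockdown and the identity of the cells were checked first. LEF1 differed by -2.71, -1.84 and -0.295 on the log2 scale at its 3 probe sets, and the largest of these falls left 0.152 of the signal. The first 2 passed without block (limma adjusted p = 0.0213 and 0.00418) while the smallest needed the block (limma adjusted p = 0.284 without and 0.00695 with). Of 8 B cell markers 7 were measured, and their mean level was 11.16 to 11.33 with scrambled siRNA and 11.30 to 11.35 with LEF1 siRNA. Markers of T and NK cells, myeloid cells, epithelium and hepatocytes, and adipocytes had mean levels of 6.54 to 6.93 over the 6 arrays, close to the overall probe set median of 6.91. Among these 1 passed, NCAM1, which fell by 0.245 (limma adjusted p = 0.0187 with batch as block, 0.444 without). In RNA from whole cultures a change in RNA per cell and a change in the mix of cells cannot be told apart.

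Part of the cholesterol pathway was higher after LEF1 siRNA, while the fatty acid enzymes gave no call at the brightest probe set of each gene. With batch as block, 6 of 28 genes rose and 0 fell, all 6 of them sterol enzymes: HMGCS1, MSMO1, TM7SF2, SC5D, LSS and SQLE. The rises ran from 1.16-fold for SQLE to 1.33-fold for MSMO1. Over all measured genes 6.73% rose and 1.70% fell in the same fit. Each of the 28 genes lay above the median level of all probe sets, and among genes above it 10.4% rose and 2.63% fell, against 21.4% and none here. The 28 genes had a median level of 10.17, far above that cut of 6.91, so the shares above it are not matched to their level. Without block 0 of 28 passed (lowest limma adjusted p = 0.166), as against 0.0253% of all genes, while 8 of 28 had an unadjusted limma p below 0.05, as did 9.9% of all genes. Leaving out either array or both arrays of batch 2 left HMGCS1 and MSMO1 as the only calls with batch as block, and leaving out batch 1 ended the calls of SQLE and LSS and left 4 rises, while FASN then fell. Without batch 3 the rises numbered 8, with DHCR7 and SREBF2 added, and FASN fell. Both falls of FASN rest on batch 2, where it differed by -0.58.

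The genes were chosen with earlier results of this comparison known, so these counts describe the set and are not independent evidence of its direction. Of 28 genes, 11 were higher in 3 of 3 batches and 2 were lower in all 3, where 26.0% of all genes, and 32.6% of those above the median level, were higher in all 3 and 13.7% lower. On 6 genes every LEF1 siRNA array lay above every scrambled siRNA array, against 9.52% of all genes and 12.2% of those above the median level. On 1 gene, EBP, every LEF1 siRNA array lay below, against 4.03%, though its batch 1 arrays were equal to 3 decimals. These counts use the brightest probe set, and the dimmest EBP probe set went the other way. The 28 genes had a median difference of 0.07, and all measured genes one of 0.02.

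**Figure D1:**
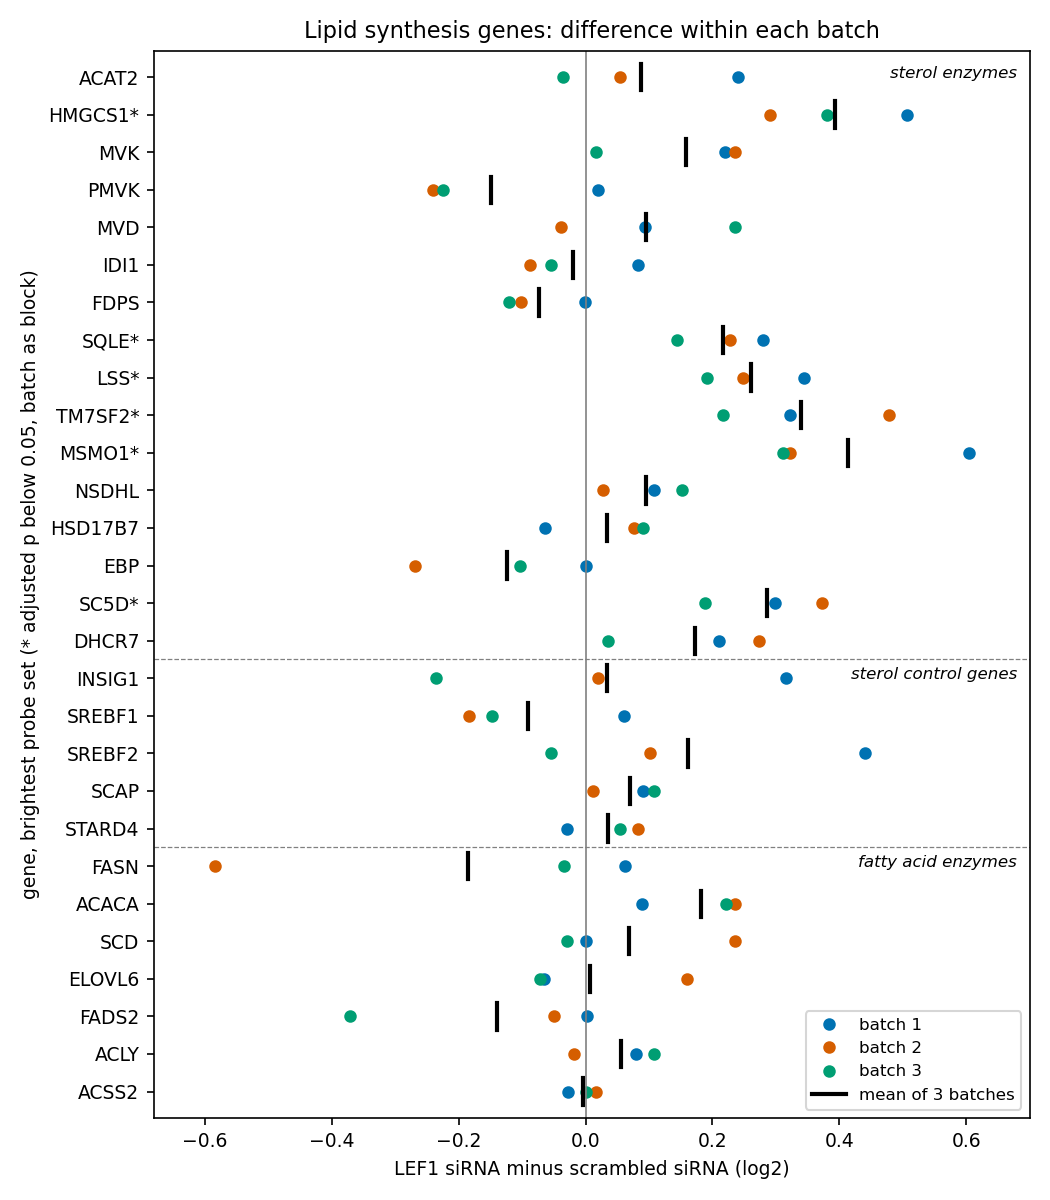
The difference between LEF1 siRNA and scrambled siRNA on the log2 scale (horizontal axis) is drawn for 28 lipid synthesis genes (vertical axis), with 1 dot per batch and a black bar at the mean of 3 batches. Genes marked with a star passed with batch as block, and for all 6 of them the dots of 3 batches lie right of 0, whereas the dots of FASN run from -0.58 to 0.06.

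Promoter sequences are given for called sterol enzymes as background, since the sterol pathway is known for shared promoter control. Whether the promoters bear on the rises was not tested. The windows of 300 bases, from RefSeq on GRCh38.p14, cover the annotated start and mostly lie before it. They are written on the strand of the gene. They are chr5:43313363-43313662 for HMGCS1 (minus strand), chr21:46228725-46229024 for LSS (minus), chr11:65111622-65111921 for TM7SF2 (plus), chr4:165327419-165327718 for MSMO1 (plus) and chr11:121292521-121292820 for SC5D (plus). HMGCS1 and SC5D each have a further listed start, not printed. SQLE, ACAT2 and FASN had no entry in the table used. Capitals mark CCAAT or its reverse complement ATTGG, the core that NF-Y binds, which is a known partner of SREBP at sterol genes.
HMGCS1: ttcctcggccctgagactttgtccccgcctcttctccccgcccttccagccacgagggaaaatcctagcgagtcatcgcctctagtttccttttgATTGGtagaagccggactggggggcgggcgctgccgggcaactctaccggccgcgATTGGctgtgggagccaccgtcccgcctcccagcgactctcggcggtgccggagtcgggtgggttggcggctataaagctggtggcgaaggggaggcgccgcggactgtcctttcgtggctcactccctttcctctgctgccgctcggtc
LSS: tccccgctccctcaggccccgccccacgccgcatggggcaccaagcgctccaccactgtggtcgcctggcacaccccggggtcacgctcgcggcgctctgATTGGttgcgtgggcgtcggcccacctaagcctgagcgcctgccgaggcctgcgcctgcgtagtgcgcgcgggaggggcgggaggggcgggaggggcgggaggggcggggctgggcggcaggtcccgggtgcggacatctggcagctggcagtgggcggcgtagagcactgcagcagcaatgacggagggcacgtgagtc
TM7SF2: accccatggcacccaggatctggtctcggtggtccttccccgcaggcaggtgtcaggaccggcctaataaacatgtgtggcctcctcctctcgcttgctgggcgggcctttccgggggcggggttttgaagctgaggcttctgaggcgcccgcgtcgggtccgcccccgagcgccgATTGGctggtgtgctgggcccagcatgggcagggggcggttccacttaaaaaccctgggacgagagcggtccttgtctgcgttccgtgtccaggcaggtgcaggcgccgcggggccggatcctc
MSMO1: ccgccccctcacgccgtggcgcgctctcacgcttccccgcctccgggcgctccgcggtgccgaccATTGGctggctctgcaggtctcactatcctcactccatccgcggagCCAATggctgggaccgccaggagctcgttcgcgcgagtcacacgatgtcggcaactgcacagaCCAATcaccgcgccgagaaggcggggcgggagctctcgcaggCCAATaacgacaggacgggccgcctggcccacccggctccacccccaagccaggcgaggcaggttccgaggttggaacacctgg
SC5D: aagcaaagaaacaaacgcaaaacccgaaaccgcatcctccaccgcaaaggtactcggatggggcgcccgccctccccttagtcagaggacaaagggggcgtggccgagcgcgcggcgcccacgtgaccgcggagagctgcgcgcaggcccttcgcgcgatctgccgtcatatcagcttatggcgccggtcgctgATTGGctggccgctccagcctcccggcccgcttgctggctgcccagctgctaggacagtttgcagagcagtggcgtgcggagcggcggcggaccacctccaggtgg

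MSMO1 had 4 CCAAT matches in its window, HMGCS1 had 2, and LSS, TM7SF2 and SC5D had 1 each. In HMGCS1 the matches began at -155 and -100 relative to the start. Among measured genes with a window in the table, 13 of 14 sterol enzymes, 3 of 5 control genes and 5 of 6 fatty acid enzymes held the letters in at least 1 window, as did 41.7% of 15384 genes. The match thus did not separate called from uncalled genes, at 5 of 5 and 16 of 20. The sterol regulatory element, searched as TCACNCCAC on both strands, occurred in 1 of 25 genes, SREBF2, 133 bases before the start, and in 1.43% of all genes. A LEF1 and TCF motif, searched as ATCAAAG on both strands, occurred in 0 of 25 and in 2.61% of all genes. No other motif was searched, and a window without a match says only that these letters are not in it.

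The early steps, from acetyl-CoA to farnesyl diphosphate, held 1 call among 7 measured genes. HMGCS1, which makes HMG-CoA in the cytosol, read 10.33, 10.57 and 10.34 in batches 1 to 3 with scrambled siRNA and 10.84, 10.86 and 10.72 with LEF1 siRNA. The groups did not overlap. The mean went from 10.41 ± 0.13 to 10.81 ± 0.075 (SD, n = 3), a difference of 0.39 ± 0.06 (SE; limma adjusted p = 0.00167 with batch as block, 0.186 without). It passed with batch as block under every alternative run, but these were not all separate trials. With block, leaving out an array repeats leaving out its batch, and a looser threshold cannot lose a call. A second HMGCS1 probe set, nearly as bright, differed by 0.11, with 0.33 in batch 3 and -0.03 and 0.01 in batches 1 and 2, and did not pass (limma adjusted p = 0.523).

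Its neighbours in the early steps did not pass. MVK, the mevalonate kinase, read 8.91 to 9.06 with scrambled siRNA and 9.07 to 9.17 with LEF1 siRNA, without overlap, and differed by 0.16 (95% interval 0.03 to 0.29; limma adjusted p = 0.186 with batch as block). Its batch differences were 0.22, 0.24 and 0.02. ACAT2, the thiolase that starts the route, differed by 0.09, and MVD, the mevalonate diphosphate decarboxylase, by 0.10, with scrambled siRNA arrays 0.41 apart for MVD. PMVK, the phosphomevalonate kinase, went the other way at -0.15 (interval -0.29 to -0.01; limma adjusted p = 0.243). IDI1, which isomerises isopentenyl diphosphate, and FDPS, which makes farnesyl diphosphate, differed by -0.02 and -0.07. Their intervals of -0.15 to 0.11 and -0.20 to 0.05 ended below the difference measured for HMGCS1.

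From squalene onward 5 of 9 measured genes rose and 8 of 9 lay above 0, with a median difference of 0.22, against 0.09 over the early steps. Over all genes 6.73% rose, or 10.4% of those above the median level, and 59.0% lay above 0. This division follows the pathway but was made after the values were seen. MSMO1, the methylsterol oxidase that acts after lanosterol, differed most. It read 11.35, 11.54 and 11.42 with scrambled siRNA and 11.95, 11.86 and 11.73 with LEF1 siRNA, so the groups did not overlap. The difference of 0.41 ± 0.07 (SE) was 0.60, 0.32 and 0.31 by batch (limma adjusted p = 0.00218 with batch as block, 0.166 without). MSMO1 also passed with batch as block under every alternative run, with the same repeats among them as for HMGCS1.

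SQLE, the squalene epoxidase, read 11.28, 11.40 and 11.28 with scrambled siRNA and 11.57, 11.62 and 11.42 with LEF1 siRNA. The groups did not overlap, but the lowest treated array was only just above the highest control. Its difference of 0.22 ± 0.06 (SE) was the weakest call (limma adjusted p = 0.0390 with batch as block) and did not pass with equal array medians (limma adjusted p = 0.0778), with trend and robust eBayes (0.0973) or at the most variable probe set (0.914). The other 3 SQLE probe sets differed by 0.03 to 0.12 and did not pass. LSS, which closes the rings of lanosterol, read 10.65, 10.99 and 10.79 and then 10.996, 11.24 and 10.98. Here the groups overlapped while each batch showed a rise, of 0.34, 0.25 and 0.19 (limma adjusted p = 0.0153 with batch as block, 0.577 without). Its dimmer probe sets differed by 0.085 and 0.06 and did not pass, and the first of them is its most variable (limma adjusted p = 0.582).

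TM7SF2, a sterol reductase of the endoplasmic reticulum, read 8.73, 9.004 and 8.71 with scrambled siRNA and 9.05, 9.48 and 8.93 with LEF1 siRNA. Batch 2 was high in both groups, which therefore overlapped. The batch differences were 0.32, 0.48 and 0.22 (mean 0.34 ± 0.06, SE; limma adjusted p = 0.00516 with batch as block, 0.630 without). SC5D, the sterol desaturase that forms the ring double bond ahead of DHCR7, read 9.05, 8.76 and 8.91 and then 9.35, 9.13 and 9.10. Those groups did not overlap, and the difference was 0.29 ± 0.06 (SE; limma adjusted p = 0.0102 with batch as block, 0.450 without). Its other probe set, at a mean of 6.79, lay below the median level of all probe sets and differed by 0.06.

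DHCR7, the reductase of the last step to cholesterol, gave a call at 1 of its 2 probe sets. The brighter read 10.12, 10.16 and 10.26 and then 10.33, 10.44 and 10.30, a difference of 0.17 that did not pass (limma adjusted p = 0.137 with batch as block). On the dimmer probe set the rises were 0.22, 0.21 and 0.22, and it passed (limma adjusted p = 0.0343). The call was lost under each of 4 other scalings (limma adjusted p = 0.0592 to 0.225) and without any 1 batch (0.0804 to 0.134). NSDHL, a sterol dehydrogenase, and HSD17B7, a ketosterol reductase, differed by 0.10 and 0.03. EBP, the sterol isomerase, was level in batch 1 and lower by batch in the others (-0.27 and -0.10), and its difference of -0.12 did not pass (interval -0.26 to 0.01; limma adjusted p = 0.349 with batch as block). Its dimmer probe sets differed by -0.119, -0.085 and 0.127 and did not pass. At the last of these, the dimmest, every LEF1 siRNA array lay above every scrambled siRNA array.

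**Figure D2:**
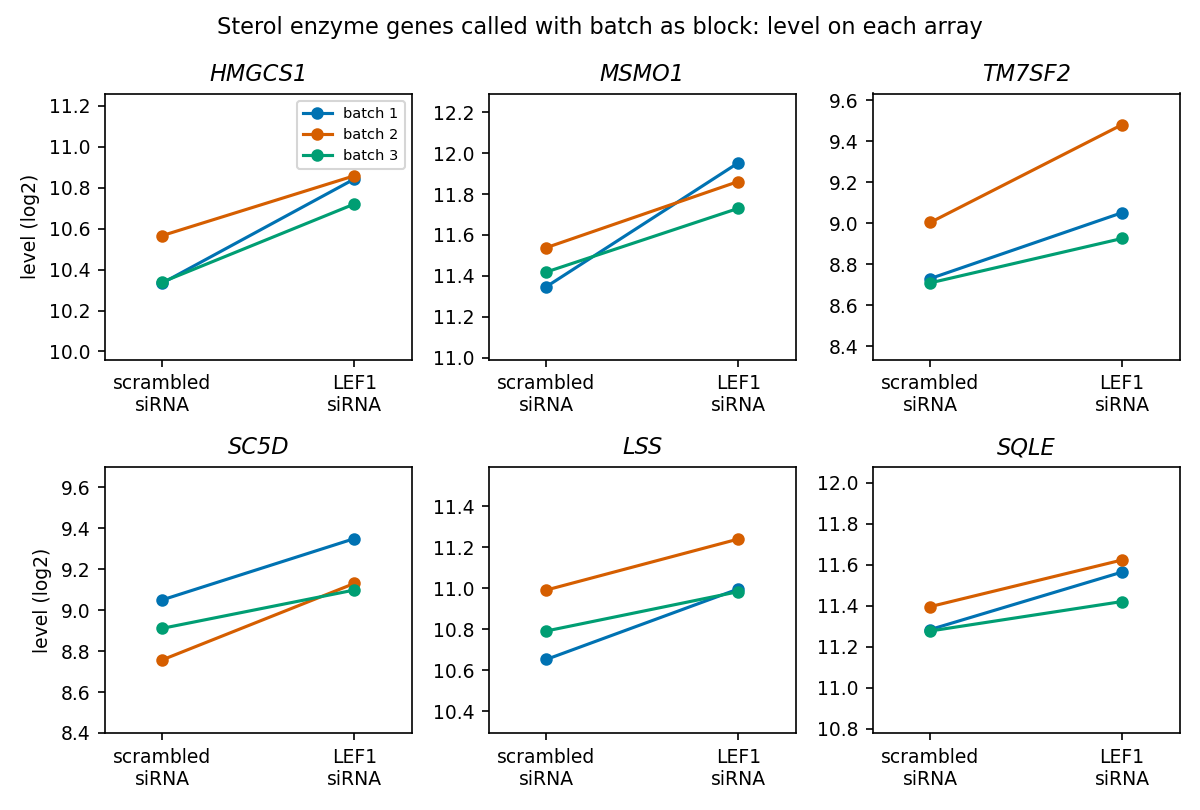
The log2 level (vertical axis, 1.3 units high in each panel) of the 6 called sterol enzyme genes is drawn for scrambled and LEF1 siRNA, with 1 line per batch joining its 2 arrays. Each line rises, from 0.14 for SQLE in batch 3 to 0.60 for MSMO1 in batch 1. The lines of TM7SF2, SC5D and LSS start at levels that differ between batches by about as much as they rise.

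The genes that control the pathway gave no call at their brightest probe sets, with a median difference of 0.04 over 5 genes. At the shares of all genes called, so small a set can hold no call. SREBF2, which encodes SREBP-2, read 9.31, 9.57 and 9.65 with scrambled siRNA and 9.75, 9.67 and 9.59 with LEF1 siRNA. Its difference of 0.16 (interval -0.01 to 0.33; limma adjusted p = 0.316 with batch as block) came from 0.44 in batch 1, with 0.10 and -0.05 in the others. SREBF1, which encodes SREBP-1, differed by -0.09. SCAP, the escort of both, differed by 0.07, and STARD4, a carrier of cholesterol between membranes, by 0.04.

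INSIG1, the sterol-dependent retention protein and itself a classical SREBP target, read differently at each probe set. The brightest differed by 0.32, 0.02 and -0.23 in batches 1 to 3, a mean of 0.03 that did not pass (limma adjusted p = 0.909 with batch as block). A slightly dimmer one read 11.56, 11.41 and 11.40 with scrambled siRNA and 11.95, 11.78 and 11.79 with LEF1 siRNA, without overlap. Its differences of 0.39, 0.37 and 0.39 made it one of the most even rises in the set (mean 0.38; limma adjusted p = 0.00114 with batch as block, 0.169 without). It passed with batch as block under every alternative run on it, but these were not all separate trials. With block, leaving out an array repeats leaving out its batch. A looser threshold cannot lose a call, and the choice of probe set per gene does not alter the fit of this probe set. The third probe set differed by -0.05. No position of these probe sets along the transcript was used here, and why they disagree was not tested.

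Fatty acid enzymes gave no call at their brightest probe sets, with a median difference of 0.01 over 7 genes. Among genes above the median level 10.4% rose and 2.63% fell, so no call among 7 genes does not set this branch apart. ACACA, the acetyl-CoA carboxylase that commits carbon to fatty acids, came closest, at 9.46, 9.59 and 9.84 and then 9.55, 9.83 and 10.06 (difference 0.18, interval 0.06 to 0.31; limma adjusted p = 0.0909 with batch as block). FASN, the fatty acid synthase, read 10.53, 11.39 and 10.52 with scrambled siRNA and 10.59, 10.81 and 10.48 with LEF1 siRNA. The scrambled array of batch 2 stood far above the other two, a range of 0.88, and the batch differences were 0.06, -0.58 and -0.03. Their mean of -0.19 did not pass (limma adjusted p = 0.352 with batch as block), but it passed as a fall without batch 1 (-0.31; limma adjusted p = 0.0150) or batch 3 (-0.26; limma adjusted p = 0.0332). Both of those fits keep batch 2, whose -0.58 accounts for the falls, so they do not show a fall shared between batches.

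The desaturases and elongase were close to level at these probe sets. SCD, the stearoyl-CoA desaturase, differed by 0.07 (interval -0.07 to 0.21), ELOVL6, the elongase of palmitate, by 0.01 (-0.13 to 0.14) and FADS2, the first desaturase of polyunsaturated fatty acids, by -0.14 (-0.29 to 0.01). Of the enzymes that supply acetyl-CoA to both routes, ACLY, which splits citrate, differed by 0.06 (-0.07 to 0.18), and ACSS2, which activates acetate, by -0.004 (-0.12 to 0.12). FADS2 and ACSS2 read 7.21 and 7.24 with scrambled siRNA, not far above the overall median of 6.91.

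The dimmer probe sets of the fatty acid genes numbered 10. All 10 lay below 0, as did 24057 of all 54613 probe sets, and several of the 10 read the same gene. With batch as block 4 fell, 1 each of ACACA, SCD, ELOVL6 and ACLY, whose brightest probe sets lay above 0. For FASN and FADS2 the brightest probe sets lay below 0 as well. Over all 61 probe sets of the 28 genes 8 rose and 4 fell, where 4.58% and 1.51% of all probe sets did, dim ones included. An SCD probe set read 9.92, 10.06 and 9.97 with scrambled siRNA and 9.80, 9.74 and 9.48 with LEF1 siRNA, without overlap (difference -0.31; limma adjusted p = 0.0142 with batch as block, 0.348 without). The other SCD probe sets differed by -0.19 and -0.24 and did not pass (limma adjusted p = 0.0847 and 0.0502).

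ACLY showed the same split, with a fall of 0.30 at its second probe set (0.001, -0.37 and -0.54 by batch; limma adjusted p = 0.0432 with batch as block) and a difference of -0.205 at the third, which did not pass. ACACA differed by 0.09 to 0.24 across batches at 1 probe set, which did not pass, and by -0.23 to -0.20 at the other, which fell (limma adjusted p = 0.0357). ELOVL6 fell by 0.27 at its dimmest probe set (limma adjusted p = 0.0191). Without batch 2 the calls of the SCD, ACLY and ACACA probe sets were lost (limma adjusted p = 0.0737, 0.219 and 0.132), and without batch 3 as well (0.0614, 0.176 and 0.0892), whereas that of ACACA and that of ELOVL6 were lost without batch 1 (0.0926 and 0.107). For these 4 genes the direction depended on the probe set read.

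**Figure D3:**
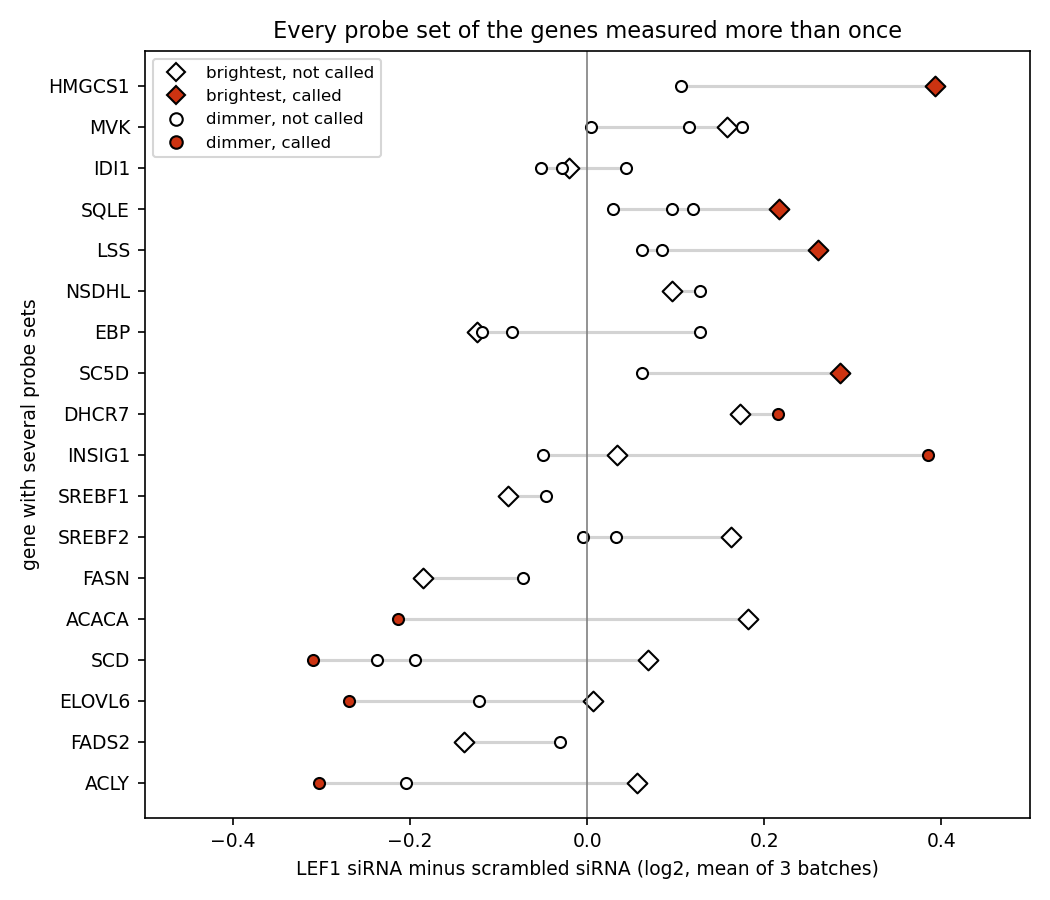
The mean difference between LEF1 siRNA and scrambled siRNA on the log2 scale (horizontal axis) is drawn for every probe set of the 18 genes with several (vertical axis). Diamonds are the brightest probe sets, circles the dimmer ones, and red fill marks those called with batch as block. Called fatty acid probe sets lie left of 0, down to -0.31 for SCD, and called sterol probe sets right of it, up to 0.39.

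In all, 18 of 28 genes had several probe sets, and in 8 of these the probe sets differed in sign. In 10 some probe sets were called and others not, and in 0 were all called. INSIG1 had the widest gap, 0.43 between its highest and lowest difference, and NSDHL the narrowest, 0.03. The names of the IDI1 and HSD17B7 probe sets used end in x_at, a suffix that Affymetrix gives where probes are shared with other transcripts. Their values may hold signal from related sequences. Names of other probe sets used, among them those of the called TM7SF2 and SC5D, end in s_at, and shared probes were not examined for any gene.

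Batch means are given here for each branch, at the brightest probe set per gene. The 16 sterol enzymes had mean differences of 0.20, 0.12 and 0.09 in batches 1, 2 and 3, a mean of 0.14 ± 0.06 (SD over 3 batches). All measured genes had 0.03, 0.06 and 0.01. Sterol control genes had 0.18, 0.01 and -0.06, so only batch 1 was clearly above 0. Fatty acid enzymes had 0.02, 0.00 and -0.03. Of the 28 genes, 22 lay above 0 in batch 1, 19 in batch 2 and 15 in batch 3, or 78.6%, 67.9% and 53.6%. Over all genes these shares were 54.8%, 64.6% and 50.8%, close to those of the 28 genes in batches 2 and 3. No test was made of a mean over chosen genes, and whether the branches differ from each other was not tested.

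**Figure D4:**
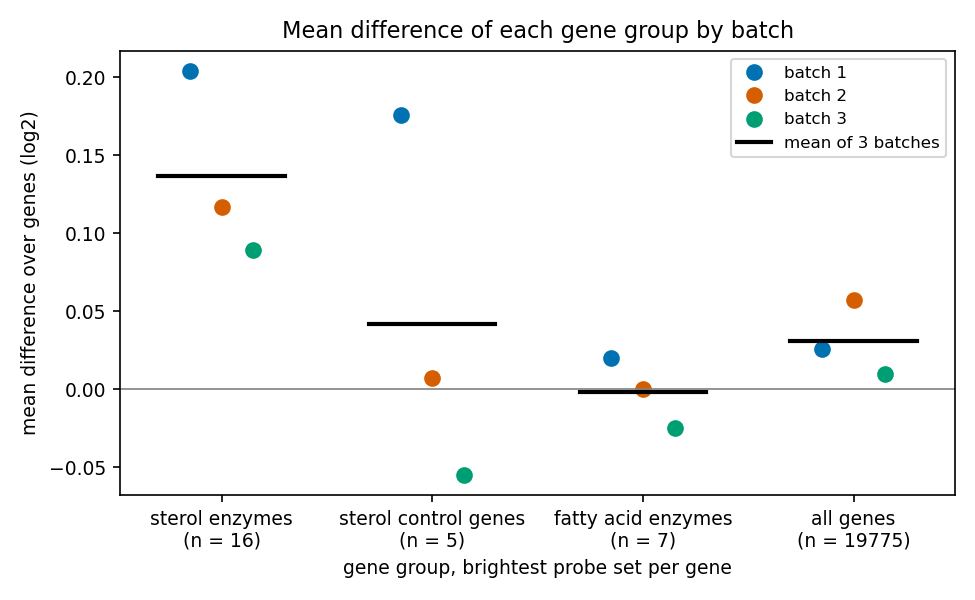
The mean log2 difference over the genes of each group (vertical axis) is drawn by batch for the 3 gene groups and for all 19775 genes (horizontal axis), with a black bar at the mean of 3 batches. The sterol enzymes lie at 0.09 to 0.20, above the 0.01 to 0.06 of all genes, and the fatty acid enzymes at -0.03 to 0.02.

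These differences are small beside the spread of scrambled siRNA levels between batches. Scrambled siRNA arrays of 1 gene lay 0.04 to 0.88 apart, with a median of 0.24, and in 20 of 28 genes this range was wider than the difference between groups. The exceptions included HMGCS1, MSMO1 and SQLE. The fit with batch as block removes only the part of this spread that both arrays of a batch share. The fit without block retains it all. For FASN, which had the widest range, the batch differences still ran from -0.58 to 0.06.

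Scaling moved the counts. When arrays were scaled to the poly-A spike-ins, RNAs added before labelling, every difference fell by 0.11, so that the overall probe set median became -0.10. With batch as block 3 of the 28 genes then rose, HMGCS1, MSMO1 and TM7SF2, and 4 fell, PMVK by 0.26, EBP by 0.23, FASN by 0.29 and FADS2 by 0.25, and the mean of the sterol enzymes went to 0.03. Quantile normalization and cyclic loess kept 6 rises and equal array medians 5. The 6 called genes kept their direction at their brightest probe sets under these 4 scalings. With the poly-A spike-ins this was fixed in advance, since even the smallest of their differences, 0.22 for SQLE, exceeded the shift of 0.11. Little can thus be read from the kept direction.

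Genes next to the pathway were read from 7 lists, of which 85 of 97 genes were measured. In these lists 13 genes rose with batch as block and 0 fell, or 15.3% against the 10.4% of genes above the median level, and without block 0 passed. Among 7 other sterol pathway enzymes 1 rose, ERG28, a scaffold of the sterol enzymes, by 0.23, and it was lost under each of 4 other scalings (limma adjusted p = 0.0622 to 0.189). Of 10 genes of SREBP processing and sterol-regulated degradation 2 rose. They were MARCHF6, a ubiquitin ligase that marks squalene epoxidase for degradation, by 0.31 (limma adjusted p = 0.00616), and MBTPS2, a membrane protease that releases SREBP, by 0.23 (limma adjusted p = 0.0459). MBTPS2 did not pass under those scalings either (0.0682 to 0.212), and both ERG28 and MBTPS2 were lost without batch 1 (0.259 and 0.0523) or batch 2 (0.0733 and 0.378).

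Genes of sterol uptake, efflux and storage held 3 rises among 13 measured. ABCA1, a cholesterol exporter, read 8.97, 8.50 and 8.91 with scrambled siRNA and 9.19, 9.08 and 9.49 with LEF1 siRNA, without overlap (difference 0.46; limma adjusted p = 0.00179 with batch as block, 0.406 without). ABCG1, a second exporter, read 8.94, 8.44 and 8.82 and then 9.24, 8.996 and 8.99, also without overlap (0.34; limma adjusted p = 0.00998). MYLIP, a ubiquitin ligase that acts on lipoprotein receptors, rose by 0.54, 0.25 and 0.37, although its groups overlapped (0.39; limma adjusted p = 0.00285). ABCG1 did not pass without batch 2 (limma adjusted p = 0.119).

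Activation of fatty acids and assembly of glycerolipids gave 4 rises among 18 measured genes. ACSL4, an acyl-CoA synthetase that favours polyunsaturated fatty acids, read 8.72, 8.56 and 8.49 and then 9.18, 9.18 and 8.86 (0.49; limma adjusted p = 0.000535 with batch as block). LPIN1, a phosphatidate phosphatase, read 8.60, 8.61 and 8.78 and then 9.13, 9.06 and 9.11 (0.44; limma adjusted p = 0.000773). For both, every treated array lay above every control array. ACSL1, another acyl-CoA synthetase, rose by 0.34 (limma adjusted p = 0.00303) and GPAM, a glycerol phosphate acyltransferase, by 0.23 (limma adjusted p = 0.0478), the latter lost without batch 3 (0.324) or batch 2 (0.0781) and under each of the 4 other scalings.

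Fatty acid oxidation gave 3 rises among 13 measured genes. ACADM, the medium-chain acyl-CoA dehydrogenase, read 12.25, 11.95 and 12.14 and then 12.58, 12.40 and 12.37, without overlap (0.34; limma adjusted p = 0.00461 with batch as block). HADHB, a subunit of the mitochondrial trifunctional protein, rose by 0.26 (limma adjusted p = 0.0125) and ACAA1, a peroxisomal thiolase, by 0.26 (limma adjusted p = 0.0122). ACADM and ACAA1 did not pass without batch 2 (limma adjusted p = 0.0532 and 0.0889), and HADHB and ACAA1 did not with poly-A spike-in scaling (0.101 and 0.102). Under that scaling this list gave 1 rise and 2 falls, the uptake, efflux and storage list 3 rises and 2 falls, and the activation and assembly list 3 rises and 1 fall.

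The isoprenoid branch, which leaves the sterol route at farnesyl diphosphate, gave no call among 16 genes at their brightest probe sets. GGPS1, the geranylgeranyl diphosphate synthase, differed by -0.205, just short of a call (limma adjusted p = 0.0513 with batch as block). It passed as a fall under each of the 4 other scalings (limma adjusted p = 0.00322 to 0.0445) and without batch 1 (0.0488). The GGPS1 probe set that varied most instead rose by 0.306 (limma adjusted p = 0.00737 with batch as block), so the direction depended on the probe set read. When all genes were read in that way, the isoprenoid list gave 2 rises and 0 falls. ICMT, a methyltransferase of prenylated proteins, differed by -0.16 at its brightest probe set (limma adjusted p = 0.128). With the poly-A spike-ins 4 genes of this list fell. The list of citrate, NADPH and carbohydrate-responsive supply gave no call among 8 genes, with THRSP at 0.17 and IDH1 at -0.13 (limma adjusted p = 0.149 and 0.238), and 2 fell under that scaling.

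**Figure D5:**
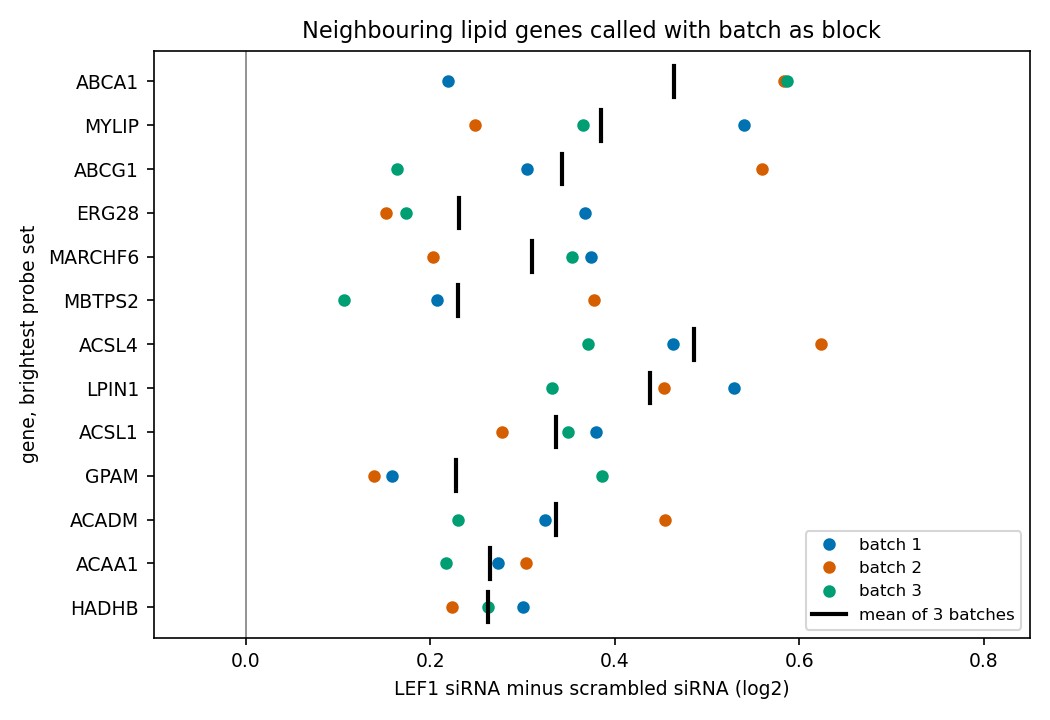
The difference between LEF1 siRNA and scrambled siRNA on the log2 scale (horizontal axis) is drawn for the 13 neighbouring lipid genes called with batch as block (vertical axis), with 1 dot per batch and a black bar at the mean of 3 batches. Every dot lies right of 0, from 0.11 for MBTPS2 in batch 3 to 0.62 for ACSL4 in batch 2.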

How the data were processed

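The authors deposited log2 values for each probe set of the HG-U133 Plus 2.0 array, with background correction and normalization not given in any source used. The log2 scale was read from the range of 5.45 to 14.95. RNA was labelled with the Affymetrix GeneChip 3' IVT Express Kit, per the labels' protocols.

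Of 54675 probe sets, 62 controls were left out. Symbols came from the platform annotation, checked by gene ID against RefSeq, which changed 0; 41091 probe sets named 1 gene. The brightest probe set stood for a gene. Differences were fitted across all 54613 probe sets with limma 3.58.1 in R 4.3.3, two-sided, with Benjamini-Hochberg adjustment and a threshold of 0.05, once with group alone and once with batch added as a block. The labels name the batch, which pairs the arrays; deviations from group means correlated at 0.477, 0.493 and 0.621 within batches, across probe sets. Residual degrees of freedom were 4 and 2, and prior ones 4.07 and 12.0. Both fits were run on simulated data with known changes. Without block 0% of changes of 0.3 and 55% of changes of 0.6 were recovered, with 0 false calls. With block 89% and 100% were recovered, with 19 false calls among 208. The simulated batch shifts were shared in full by both arrays of a batch, which is more than the correlations above show here.

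The genes and lists were chosen with earlier results of these data known. Named were LEF1, all measured genes of the set, and from each list up to 4 called genes or, with no call, the 2 of lowest p. The design text calls the replicates biological. The p-values, SEs and intervals from limma do not rest on the spread of each gene between these arrays alone. They combine it with a variance shared over all probe sets. With block, at 2 residual and 12.0 prior degrees of freedom, the shared variance carries most of the weight. The SEs of the 28 genes with block thus ran only from 0.056 for ACSS2 to 0.094 for FASN. For a gene with uneven batch differences the SE can be too small. Having so few arrays leaves every estimate imprecise. Alternatives covered scaling, dim probe sets, the probe set per gene, eBayes, the threshold and each array or batch left out. Figures used matplotlib 3.10.9.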

Additional observations from a re-analysis of the deposited data

How the results depend on the processing

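The replicate block, that is batch as block, took the called genes from 0 to 6 of 28. With it, counts stayed between 5 and 7 under the other scalings and settings, with 3 rises and 4 falls for poly-A spike-ins and 5 rises and 2 falls for the most variable probe set per gene. Leaving out arrays or batches gave 2 to 9 calls with block and 0 without. The sterol enzyme mean ran from 0.102 to 0.163 without single arrays or batches and was 0.028 with poly-A spike-ins. The control gene mean ran from -0.024 to 0.091 and was -0.067 with poly-A spike-ins. The fatty acid mean ran from -0.043 to 0.035, and was -0.025 with equal medians, -0.111 with poly-A spike-ins and -0.107 with the most variable probe sets, where SCD and ACLY turned to -0.31 and -0.303 and GGPS1 to 0.306, since another probe set is read; with trend and robust eBayes SQLE, ERG28, MBTPS2, GPAM and a DHCR7 probe set lost their rises and an ACLY and an ACACA probe set their falls, and with the most variable probe set SQLE, LSS, ERG28 and MARCHF6 lost their rises. Other causes were not tested. Leaving out 1 array of a batch removes that batch from the fit with block.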
